A study of Ovis aries with 6 samples.

Results

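The genes described here build cholesterol and fatty acids, or control that building. They are 31 genes chosen by symbol: 7 of the mevalonate and isoprenoid steps, 11 that turn farnesyl pyrophosphate into cholesterol, 6 that control sterol sensing or move sterol, and 7 of fatty acid synthesis and desaturation. All 31 have a row among the 18865 rows of the deposited count table. In the test across all genes 30 passed the filter on low counts, and TM7SF2, with 5 to 24 counts a library, did not. The RNA came from sheep (Ovis aries) mitral valve endothelial cells (VECs), which line the valve leaflets. Both groups were exposed to sheep plasma for 24 h: naive plasma in 3 libraries and plasma taken after myocardial infarction (post-MI) in the other 3. The labels give no plasma dose. They also do not say if libraries stem from different cultures, cell donors or plasma donors, so p-values measure only how these libraries spread, and that spread may be technical. The study is concerned with how infarction changes the mitral endothelium, and the comparison asks which transcripts differ between the plasmas.

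Cells make cholesterol from acetyl-CoA by way of mevalonate, farnesyl pyrophosphate, squalene and lanosterol. The transcription factors SREBF1 and SREBF2 are made as membrane proteins, and the escort protein SCAP carries them to the Golgi, where proteases release their active part. When sterol is plentiful, INSIG1 and INSIG2 hold SCAP back and the synthesis genes are transcribed less. SREBF2 is known mainly for sterol genes and SREBF1 mainly for fatty acid genes, and INSIG1 is itself a target of both. In endothelial cells this system is known to respond to flow and to lipoprotein cholesterol.

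Total counts were 14858472 to 20672794 per library. On the first principal component of the 500 most variable genes, which held 59.2% of their variance, naive replicate 1 had a score of -52.3, while the other 5 ranged from -0.50 to 18.5. The endothelial markers PECAM1 (889 to 1407 CPM, counts scaled to a common library size with TMM factors) and CDH5 (864 to 1384 CPM) were present in all 6 libraries, and all 14 listed endothelial markers had reads. Their sum was 3371 to 3829 CPM with naive and 3566 to 4891 CPM with post-MI plasma. Of the 14, 4 were higher with post-MI plasma at an unadjusted p under 0.05 in edgeR, against 4.61% of all genes. These were ROBO4, VWF, EGFL7 and CLDN5, with log2 fold changes of 1.30, 1.43, 0.55 and 2.27. At that level 0 were lower, and edgeR called 0 of the 14. KDR, FLT1, TEK and NOS3 had negative log2 fold changes, of -0.29, -0.23, -0.31 and -0.13. The count of 4 became 1 without post-MI replicate 1 or 2 (all genes, either direction, 4.79% and 4.13%). It became 6 without post-MI replicate 3 (9.67%). The 8 markers of fibroblasts and valve interstitial cells summed to 10965 to 20537 CPM with naive and 14042 to 18656 CPM with post-MI plasma, mostly COL1A1, COL1A2 and COL3A1. The sum was lowest in naive replicate 1. Singly, 5 of the 8 were lowest there and 2, POSTN and PDGFRA, were highest there (all genes 29.2% and 28.8%). POSTN was at 3061, 868 and 733 CPM in naive and 633, 503 and 578 CPM in post-MI replicates 1, 2 and 3 (log2 fold change -1.44 ± 0.54 SE, edgeR adjusted p = 0.561). The 7 markers of smooth muscle and pericytes in the table summed to 989.8 to 5176 CPM and 4688 to 6353 CPM, again with naive replicate 1 lowest. Most of that sum was ACTA2, at 643 to 5330 CPM, and RGS5 was at 0 in all libraries. Of the 6 tested, 5 had a positive log2 fold change (median 0.76, 0.50 without naive replicate 1). In 2, TAGLN and CSPG4, all post-MI libraries lay above all naive ones, against 8.32% of all genes. CSPG4 alone was at an unadjusted p under 0.05 in edgeR, against 4.61% of all genes higher at that level. The part of these markers in the results was not tested, and in bulk RNA fewer cells of a type and less RNA per cell cannot be told apart. The 9 leukocyte markers in the table summed to 35.6 to 54.9 CPM with naive and 34.1 to 40.9 CPM with post-MI plasma, with MS4A1 at 0. Most of that sum was CD14, at 22.6 to 41.4 CPM over the 6 libraries. PTPRC ran the other way at very low levels, at 0.20, 0.35 and 0.14 CPM in naive and 0.64, 0.82 and 1.33 CPM in post-MI replicates 1, 2 and 3. Its log2 fold change was 2.01 ± 0.54 (SE, edgeR adjusted p = 0.443). The 9 markers of fat and liver cells summed to 160 to 975 CPM and 958 to 1712 CPM, nearly all of it APOA1 and lowest in naive replicate 1, while ADIPOQ, PLIN1 and ALB were each at most 0.205 CPM and TTR and APOB at 0. The 3 red cell and platelet markers in the table summed to 4.98 to 5.36 CPM and 3.46 to 5.90 CPM, all from ITGA2B, with GATA1 and PPBP at 0.

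No single gene of sterol or fatty acid synthesis passed the test between post-MI and naive plasma, and most of the estimates lay below the naive level. HMGCS1, SQLE and HSD17B7 of sterol synthesis and SCD and ELOVL6 of fatty acid modification stood at 0.556, 0.648, 0.603, 0.570 and 0.601 times the naive level in the fit. FASN, MVD, NSDHL, SC5D, SCAP and INSIG2 had estimates close to no difference. The naive libraries were themselves spread: replicate 3 was high for most sterol genes, and replicate 1 was low for most of them and high for SREBF1, SCD and ELOVL6.

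The edgeR quasi-likelihood test, with p adjusted by Benjamini-Hochberg over 14326 genes, called 0 of the 30 tested members and 0% of all genes. The smallest adjusted p among the members was 0.491, for HMGCS1. DESeq2 and limma-voom also called 0 members, with 7 and 6 members at an unadjusted p under 0.05 against 8.54% and 8.27% of all genes in their tests. The median log2 fold change (post-MI minus naive) of the 30 members was -0.38, against -0.01 over all genes tested. Of the members 26 had a negative log2 fold change, against 52.1% of all genes. At an unadjusted p under 0.05 the test gave 6 members, all lower with post-MI plasma (ACAT2, HMGCS1, SQLE, HSD17B7, ELOVL6 and SCD), and 4.08% of all genes were lower at that level. It gave 0 members higher, against 4.61% of all genes. Leaving out naive replicate 3 gave 2 such members, against 5.36% of all genes lower at that level. Leaving out a post-MI library gave 1 member for replicate 1 (all genes 2.08%), 2 for replicate 2 (1.43%) and 10 for replicate 3 (4.57%). HMGCS1 was among them each time. Without naive replicate 3 the median was -0.10 and 18 of 30 log2 fold changes were negative, against 51.2% of all genes. Without naive replicate 1 the median was -0.46 over 31 tested members, of which 28 were negative, against 49.4% of all genes.

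**Figure D1:**
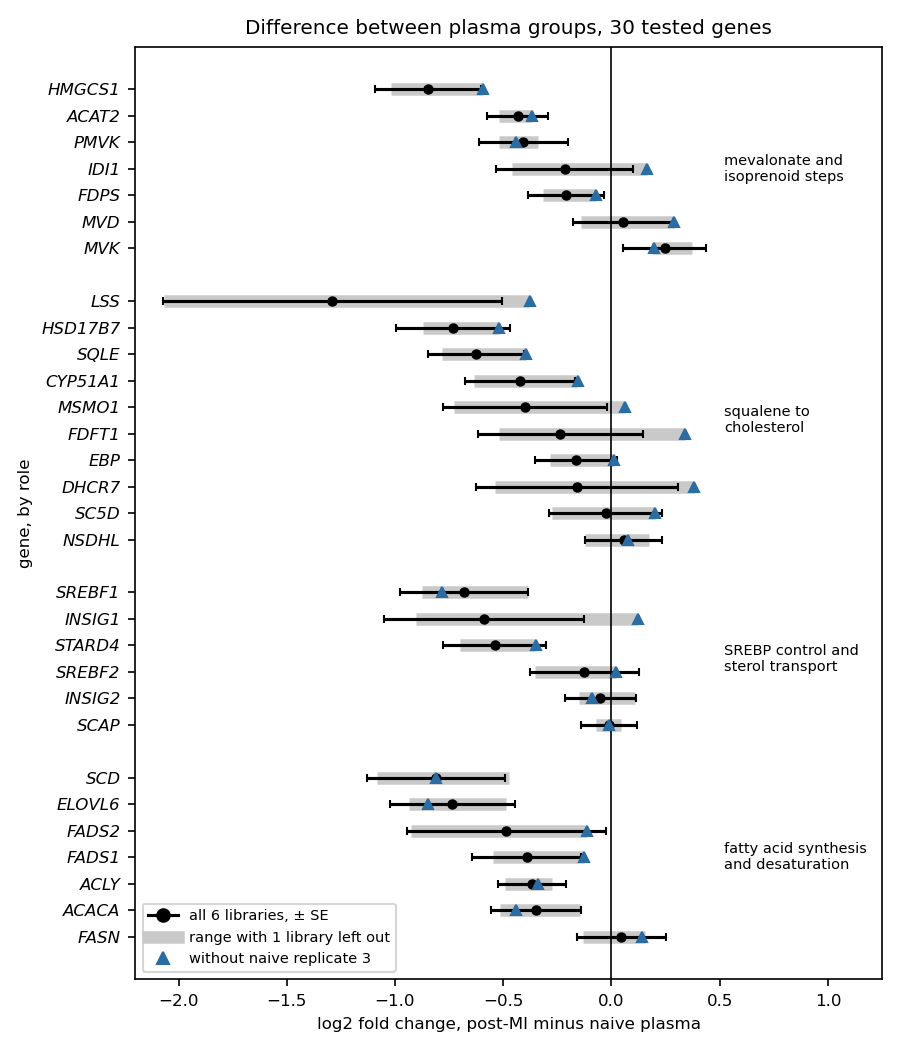
Log2 fold change (post-MI minus naive plasma, edgeR) of the 30 tested genes by role, with black points and bars for the estimate ± SE from all 6 libraries, grey bars for the range with 1 library left out and triangles for the value without naive replicate 3. Most points lie left of 0. Without naive replicate 3 the values of IDI1, MSMO1, FDFT1, DHCR7, SC5D, EBP, INSIG1 and SREBF2 move from left to right of 0. Those of MVK, MVD, NSDHL and FASN lie right of 0 with all 6 libraries and without naive replicate 3.

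In 9 of the 31 genes all post-MI libraries lay below all naive libraries in CPM, and in 0 they lay above; over all genes tested these shares were 7.82% and 8.32%. The 9 were ACAT2, HMGCS1, PMVK, SQLE, HSD17B7, SREBF1, STARD4, ACLY and ELOVL6. The gap was narrow for SREBF1 and ACLY, whose lowest naive and highest post-MI values were 23.3 and 23.1 CPM and 121 and 119.8 CPM. Without naive replicate 1, 18 genes were separated in that direction, against 12.8% of all genes, and all 9 stayed among them. The added genes were FDPS, LSS, CYP51A1, TM7SF2, MSMO1, SC5D, SREBF2, FASN and FADS1.

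The mevalonate steps start with ACAT2, which joins acetyl-CoA units, and HMGCS1, which makes HMG-CoA. HMGCS1 was at 37.4, 37.9 and 59.4 CPM in naive replicates 1, 2 and 3 and at 19.6, 24.7 and 30.6 CPM in post-MI replicates 1, 2 and 3. The groups did not overlap, and naive replicate 3 and post-MI replicate 1 lay at the ends. Its means were 44.9 ± 12.6 and 25.0 ± 5.52 CPM (SD, n = 3 each). The log2 fold change was -0.85 (adjusted p = 0.491 in edgeR, SE 0.25), and -0.59 without naive replicate 3.

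ACAT2 was at 70.2, 59.8 and 73.9 CPM in naive and 45.9, 53.2 and 51.9 CPM in post-MI replicates 1, 2 and 3. Its groups were separate with little spread, and its log2 fold change of -0.43 (adjusted p = 0.534 in edgeR, SE 0.14) stayed between -0.52 and -0.37 with any 1 library left out. PMVK, which adds the second phosphate to mevalonate, was at 6.36, 5.79 and 5.64 CPM and then 5.15, 4.03 and 4.21 CPM, with separate groups (log2 fold change -0.41 ± 0.20 SE, edgeR adjusted p = 0.580). MVK, the kinase before it, ran the other way, at 6.66, 8.57 and 6.81 CPM with naive and 9.43, 7.86 and 8.83 CPM with post-MI plasma. Its groups overlapped through naive replicate 2, and its log2 fold change of 0.25 ± 0.19 (SE) was the most positive among the tested members.

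In the remaining isoprenoid enzymes the groups overlapped. IDI1, the isomerase that yields the reactive isoprene unit, was at 20.5, 30.1 and 48.0 CPM in naive and 21.7, 31.1 and 32.2 CPM in post-MI replicates 1, 2 and 3. The decarboxylase MVD was at 12.4, 17.5 and 22.9 CPM in naive replicates and at 17.0 to 19.7 CPM with post-MI plasma. In both genes naive replicate 1 was the lowest and naive replicate 3 the highest of the 6 libraries, with all post-MI values between them. FDPS, which makes farnesyl pyrophosphate, ran from 34.1 CPM in post-MI replicate 2 to 54.4 CPM in naive replicate 3. The log2 fold changes were -0.22 ± 0.32 for IDI1, 0.05 ± 0.23 for MVD and -0.21 ± 0.18 for FDPS (SE). FDPS was -0.070 without naive replicate 3. The sign of IDI1 turned without naive replicate 3 (0.16) and that of MVD without naive replicate 1 (-0.14).

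From farnesyl pyrophosphate onward, FDFT1 makes squalene and SQLE oxidises it, a step known as a control point of the sterol branch. SQLE was at 21.3, 26.6 and 36.5 CPM in naive and 18.0, 16.1 and 20.6 CPM in post-MI replicates 1, 2 and 3. The groups did not overlap, although naive replicate 1 stood close to post-MI replicate 3. The means were 28.2 ± 7.71 and 18.2 ± 2.26 CPM (SD, n = 3 each), with a log2 fold change of -0.63 (adjusted p = 0.558 in edgeR, SE 0.22). It was -0.78 without naive replicate 1 and -0.39 without naive replicate 3.

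HSD17B7, a reductase in the removal of methyl groups from the sterol ring, had separate groups at low levels. It stood at 4.75, 4.46 and 6.77 CPM with naive and 2.95, 2.87 and 3.81 CPM with post-MI plasma (log2 fold change -0.73 ± 0.26 SE, edgeR adjusted p = 0.561). Its partner NSDHL was nearly level, at 16.8 to 18.0 CPM with naive and 15.1 to 22.4 CPM with post-MI plasma (log2 fold change 0.06 ± 0.18 SE, and -0.12 without post-MI replicate 3).

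LSS, which closes squalene epoxide into lanosterol, varied most among the 30 tested members, 8.53-fold between its highest and lowest library. In naive replicates 1, 2 and 3 it had 35, 109 and 310 reads (1.75, 6.31 and 14.6 CPM), and in the post-MI replicates 35, 25 and 98 reads (1.88, 1.71 and 5.66 CPM). The groups overlapped through naive replicate 1, which was about as low as the low post-MI libraries. Post-MI replicate 3 lay a little below naive replicate 2. The log2 fold change of -1.29 (adjusted p = 0.623 in edgeR, SE 0.78) became -0.38 when naive replicate 3 was left out, and -2.07 without post-MI replicate 3.

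Among the enzymes that finish cholesterol, most had the same order of naive libraries as LSS. CYP51A1, the lanosterol demethylase, was at 17.6, 26.4 and 35.1 CPM in naive and 20.2, 17.4 and 21.6 CPM in post-MI replicates 1, 2 and 3 (log2 fold change -0.42 ± 0.25 SE, edgeR adjusted p = 0.623). It was -0.16 without naive replicate 3 and -0.64 without naive replicate 1. MSMO1, the methyl sterol oxidase, was at 13.6, 27.9 and 44.0 CPM with naive and 20.3 to 23.6 CPM with post-MI plasma. DHCR7, the last reductase of one branch, was at 5.66, 14.2 and 23.3 CPM and 10.1 to 15.9 CPM. FDFT1 was at 14.01, 19.7 and 41.6 CPM and 18.7 to 24.2 CPM. In MSMO1, DHCR7 and FDFT1 the 3 post-MI libraries lay inside the naive range, and leaving out naive replicate 3 turned the log2 fold change from -0.40 to 0.06, from -0.16 to 0.38 and from -0.24 to 0.34. The isomerase EBP and the desaturase SC5D ran from 24.2 to 36.6 CPM and from 26.6 to 55.9 CPM over the 6 libraries, with log2 fold changes of -0.17 ± 0.19 and -0.03 ± 0.26 (SE). Their signs also turned without naive replicate 3, to 0.01 and 0.20. TM7SF2, a sterol reductase, had the fewest reads of the 31 genes, with 8, 21 and 24 reads in naive and 5, 5 and 8 reads in post-MI replicates 1, 2 and 3. Its groups overlapped at 8 counts, equal to 0.400 CPM in naive replicate 1 and 0.462 CPM in post-MI replicate 3.

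**Figure D2:**
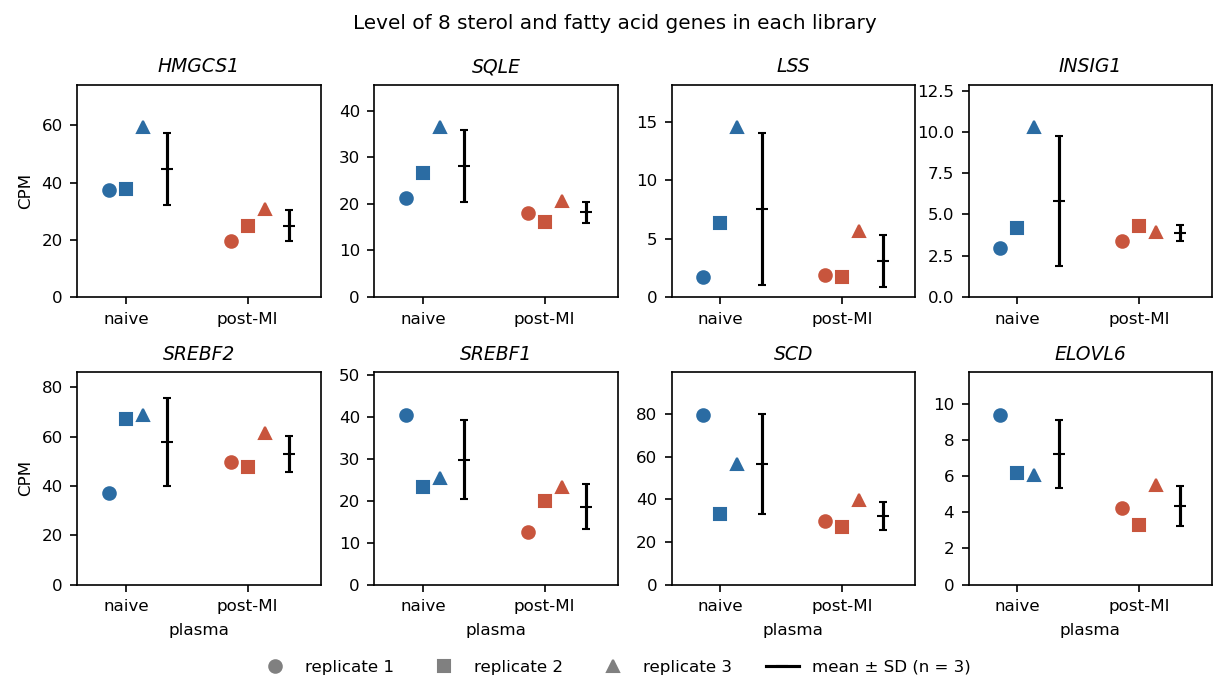
CPM of 8 genes in each library (blue, naive plasma; red, post-MI plasma; circle, square and triangle for replicates 1, 2 and 3), with the mean ± SD of 3 libraries beside them. For HMGCS1, SQLE, LSS and INSIG1 naive replicate 3 is the highest library, and for SREBF1, SCD and ELOVL6 naive replicate 1 is, at 40.5, 79.9 and 9.41 CPM.

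Among the regulators the pair of transcription factors differed in which naive library was high. SREBF1 was at 40.5, 23.3 and 25.3 CPM in naive and 12.6, 19.8 and 23.1 CPM in post-MI replicates 1, 2 and 3. Naive replicate 1 was the highest and the groups were just separate, with a log2 fold change of -0.68 (adjusted p = 0.566 in edgeR, SE 0.30), and -0.39 without naive replicate 1. SREBF2 was at 37.2, 67.0 and 68.9 CPM and then 49.6, 47.8 and 61.4 CPM. Here naive replicate 1 was the lowest of all, and the log2 fold change was -0.12 (adjusted p = 0.893 in edgeR, SE 0.25). Without naive replicate 1 the SREBF2 value was -0.35 and the groups did not overlap, and without naive replicate 3 it was 0.02.

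The paired retention proteins INSIG1 and INSIG2 also differed in how they varied. INSIG1 was at 2.95, 4.17 and 10.3 CPM in naive and 3.38, 4.30 and 3.93 CPM in post-MI replicates 1, 2 and 3. Naive replicate 3, with 219 counts, stood alone above 59 to 72 counts in the other 5 libraries. The log2 fold change of -0.59 (adjusted p = 0.693 in edgeR, SE 0.46) rested on that library and was 0.12 without it. INSIG2 was at 25.3, 18.1 and 19.9 CPM and 20.3, 19.5 and 21.3 CPM, with a log2 fold change of -0.05 ± 0.16 (SE), and 0.11 without naive replicate 1. It spanned 1.40-fold between the highest and lowest library, against 3.49-fold for INSIG1. Whether the spread of the pair differed was not tested.

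SCAP was the most even of the 31 genes, at 62.3 to 72.4 CPM, with a log2 fold change of -0.01 (adjusted p = 0.986 in edgeR, SE 0.13). STARD4, which carries sterol between membranes and is itself a known SREBP target, was at 9.71, 9.32 and 13.5 CPM in naive and 7.29, 6.01 and 9.06 CPM in post-MI replicates 1, 2 and 3. Its groups did not overlap (log2 fold change -0.54 ± 0.24 SE, edgeR adjusted p = 0.566, or -0.35 with naive replicate 3 left out), and like most sterol genes it was highest in naive replicate 3.

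Fatty acid synthesis begins with ACLY, which cuts citrate to acetyl-CoA, and ACACA, which carboxylates it. ACLY was at 121, 139.7 and 137 CPM in naive and 89.4, 98.8 and 119.8 CPM in post-MI replicates 1, 2 and 3, with a log2 fold change of -0.37 (adjusted p = 0.566 in edgeR, SE 0.16). ACACA was at 87.6, 61.7 and 60.8 CPM and 49.8, 48.2 and 67.1 CPM, and its groups overlapped through post-MI replicate 3 (log2 fold change -0.35 ± 0.21 SE, edgeR adjusted p = 0.621, or -0.15 with its highest library, naive replicate 1, left out). FASN, the synthase itself, was at 139, 219 and 215 CPM and 178, 213 and 201 CPM. It was lowest in naive replicate 1 and the groups overlapped, with a log2 fold change of 0.05 (adjusted p = 0.955 in edgeR, SE 0.20), -0.13 if naive replicate 1 was left out and -0.01 without post-MI replicate 2.

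Next come the enzymes that lengthen and desaturate fatty acids. ELOVL6, which extends palmitate, was at 9.41, 6.20 and 6.06 CPM in naive and 4.23, 3.28 and 5.48 CPM in post-MI replicates 1, 2 and 3. The groups were separate, with a log2 fold change of -0.73 (adjusted p = 0.566 in edgeR, SE 0.29), and -0.49 without naive replicate 1. SCD, which places the double bond of oleate, was at 79.9, 33.2 and 56.8 CPM and 30.1, 26.9 and 39.8 CPM. Its groups overlapped between naive replicate 2 and post-MI replicate 3, and its log2 fold change of -0.81 (adjusted p = 0.566 in edgeR, SE 0.32) was -0.47 without naive replicate 1.

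FADS1 and FADS2, neighbouring genes in the RefSeq assembly ARS-UI_Ramb_v3.0 that desaturate polyunsaturated fatty acids, followed the sterol genes in the naive group. FADS1 was at 48.2, 57.6 and 84.8 CPM in naive and 37.3, 54.4 and 53.8 CPM in post-MI replicates 1, 2 and 3. FADS2 was at 7.46, 16.8 and 22.7 CPM and 7.56, 8.95 and 17.1 CPM. In both, naive replicate 3 was the highest library and the groups overlapped. Their log2 fold changes of -0.39 ± 0.25 and -0.49 ± 0.46 (SE) were -0.13 and -0.11 without naive replicate 3.

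Seen by library, 19 of the 30 tested members had their highest value in naive replicate 3, against 18.1% of all genes tested. For the steps from squalene synthesis to cholesterol it was 9 of 10, for the mevalonate and isoprenoid steps 5 of 7, for the regulators 3 of 6 and for the fatty acid genes 2 of 7. Within the naive group 13 of the 17 tested sterol synthesis genes were highest in replicate 3 and lowest in replicate 1, as were 22.0% of all genes. The median ratio of naive replicate 3 to the mean of the other naive libraries was 1.52 for these 17 genes and 0.991 for all genes. For naive replicate 1 the same ratio was 0.675 and 0.998. The genes highest in naive replicate 1 were PMVK, SREBF1, INSIG2, ACACA, ELOVL6 and SCD, so 3 of the 7 fatty acid genes and 1 of the 17 sterol synthesis genes, against 28.8% of all genes.

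**Figure D3:**
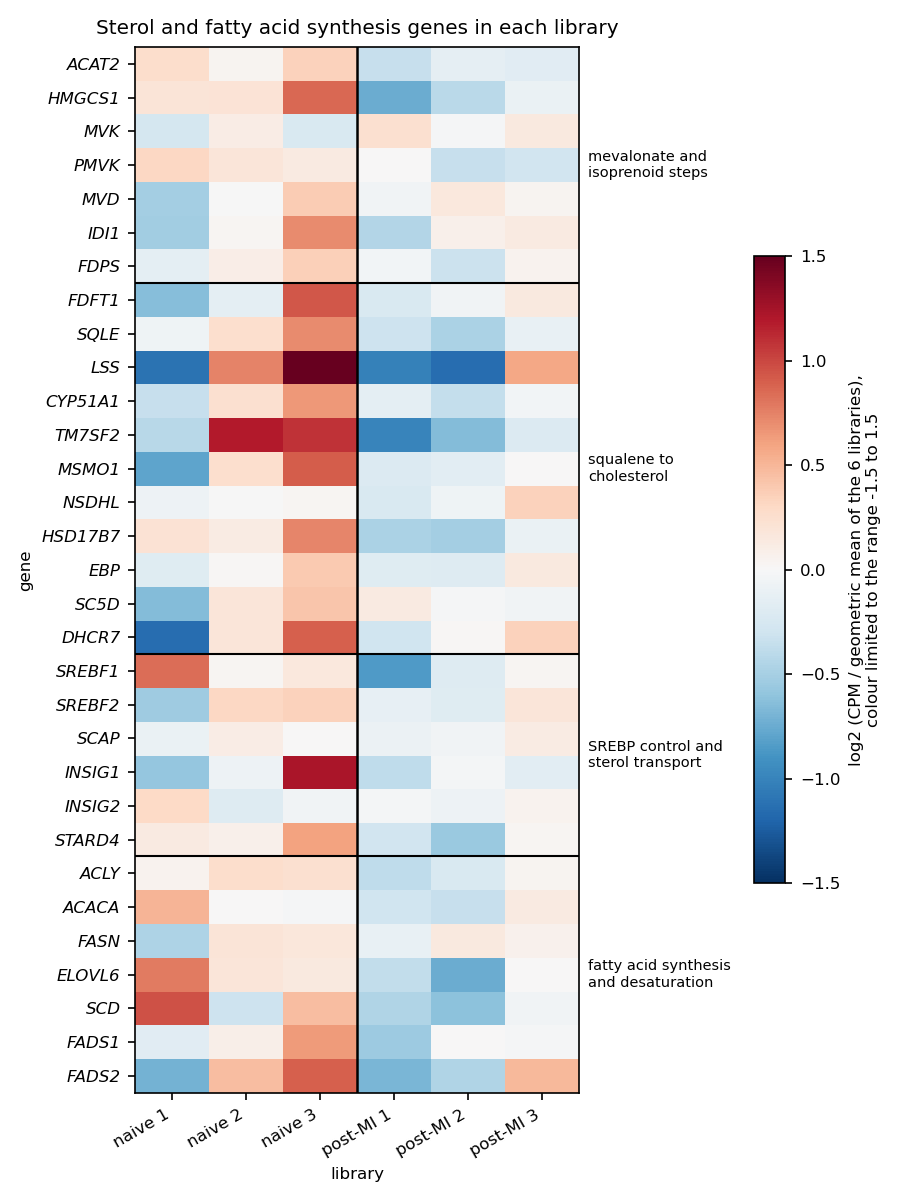
Log2 CPM of all 31 genes in each library, relative to the mean of the 6 libraries (colour limited to -1.5 to 1.5), with rows grouped by role and the vertical line dividing naive from post-MI libraries. Red (higher) fills most sterol rows in naive replicate 3, blue (lower) fills many of them in naive replicate 1, and SREBF1, ELOVL6 and SCD are red in naive replicate 1.

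For sterol genes the naive libraries were spread more than over all genes, and the post-MI libraries about as much. The SD of log2 CPM within a group had a median of 0.388 in the naive and 0.187 in the post-MI libraries for the 17 sterol synthesis genes, against 0.271 and 0.193 for all genes. It was larger in the naive group for 15 of these 17 genes, against 66.5% of all genes. Within the post-MI group, replicate 3 was the highest for 22 of the 30 members, against 38.7% of all genes. The mean log2 CPM of the steps from squalene synthesis to cholesterol was 3.53, 4.18 and 4.76 in naive and 3.71, 3.71 and 4.13 in post-MI replicates 1, 2 and 3. The mean of the fatty acid genes was 5.51, 5.50 and 5.74 and then 4.97, 5.06 and 5.47. All post-MI libraries thus lay below all naive ones for the fatty acid genes, but not for the sterol steps, where naive replicate 1 was the lowest. The gap was narrow, from 5.50 in naive replicate 2 to 5.47 in post-MI replicate 3. Taken singly, 2 of the 7 fatty acid genes had post-MI libraries all below naive ones, against 7.82% of all genes.

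**Figure D4:**
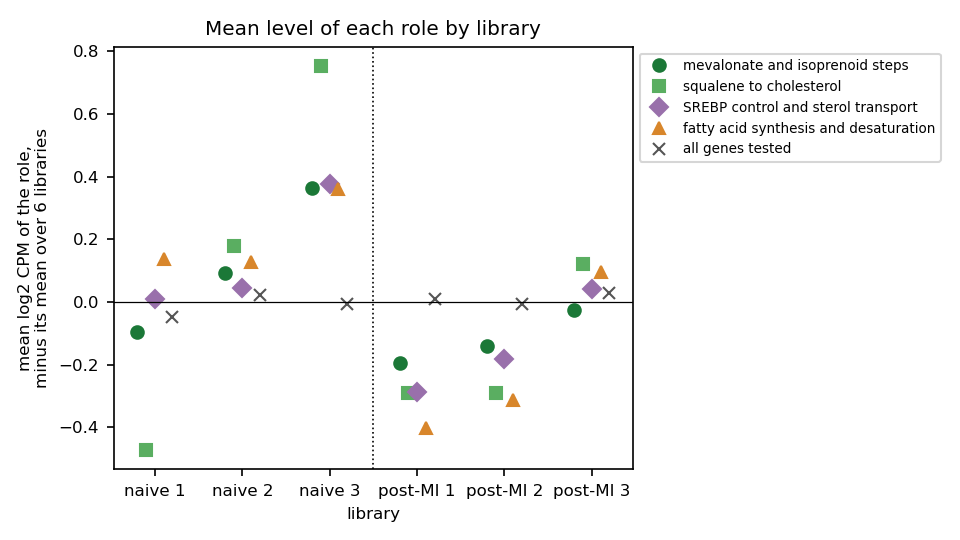
Mean log2 CPM of the tested genes of each role in each library, minus that role's mean over the 6 libraries, with all genes tested as crosses. Squalene-to-cholesterol genes are lowest in naive replicate 1 and highest in naive replicate 3, and fatty acid genes are above 0 in all naive libraries and below 0 in post-MI replicates 1 and 2.

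Genes that act beside these enzymes were read from lists of related genes, and 0 of the 59 tested were called by edgeR, with 4 at an unadjusted p under 0.05 (LBR, FBXW7, ME1 and SOAT1), against 8.68% of all genes. Without post-MI replicate 1 that count was 2, against 4.81% of all genes. limma-voom called 0 and had 3 at that level, against 8.27% of all genes. DESeq2 called 1, ME1, against 1.51% of all genes in its test. Among 11 other sterol and isoprenoid enzymes 6 had a negative log2 fold change (median -0.09, 0.042 without naive replicate 1 and -0.15 without naive replicate 2). For this and the lists below, the share of negative values over all genes tested was 52.1%. LBR, a nuclear membrane protein with sterol reductase activity like that of TM7SF2, was higher with post-MI plasma, at 16.7, 21.5 and 20.3 CPM in naive and 38.1, 31.4 and 24.4 CPM in post-MI replicates 1, 2 and 3. The groups did not overlap (log2 fold change 0.68 ± 0.20 SE, edgeR adjusted p = 0.492). PDSS1, which makes isoprenoid chains, gave 0.31 ± 0.20 (SE), and its groups did not overlap either.

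Of 8 genes for the processing and turnover of the SREBP system, 4 had a negative log2 fold change (median 0.006, between -0.061 without naive replicate 1 and 0.065 without naive replicate 3). FBXW7, a ubiquitin ligase subunit that marks active SREBPs for destruction, was at 17.2 to 19.9 CPM with naive and 20.1 to 26.3 CPM with post-MI plasma (log2 fold change 0.37 ± 0.16 SE, edgeR adjusted p = 0.566). RNF145, a membrane ubiquitin ligase, gave -0.49 ± 0.25 (SE) and -0.19 without naive replicate 1, where it was at 219 CPM against 99.9 to 143 CPM elsewhere. MBTPS1, the first Golgi protease, gave 0.23 ± 0.18 (SE) and 0.085 without naive replicate 1, its lowest library.

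Of 19 tested genes for other steps of fatty acid metabolism, 15 had a negative log2 fold change (median -0.10, -0.18 when post-MI replicate 3 was left out and -0.006 without naive replicate 3). ME1, the cytosolic malic enzyme that supplies NADPH for fatty acid synthesis, had the smallest p, at 99.7, 83.7 and 85.1 CPM in naive and 28.6, 46.9 and 52.7 CPM in post-MI replicates 1, 2 and 3. Its groups were widely separate, with a log2 fold change of -1.07 (adjusted p = 0.354 in edgeR, SE 0.24). The dehydratases HACD3 and HACD2, which act in fatty acid elongation, gave -0.37 ± 0.18 and -0.31 ± 0.18 (SE), with HACD3 at -0.23 without post-MI replicate 1 and HACD2 at -0.49 without post-MI replicate 3.

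Of 13 genes for uptake, trafficking and storage of sterol, 8 had a negative log2 fold change (median -0.10, -0.20 when post-MI replicate 3 was left out and 0.024 without post-MI replicate 1). SOAT1, which esterifies cholesterol for storage, was at 168, 70.2 and 30.4 CPM in naive and 43.2, 30.7 and 33.9 CPM in post-MI replicates 1, 2 and 3. Its log2 fold change of -1.32 (adjusted p = 0.566 in edgeR, SE 0.55) was -0.47 without naive replicate 1. The groups overlapped through naive replicate 3, which was the lowest of the 6 libraries. GRAMD1A and NPC1, which move cholesterol out of the plasma membrane and the lysosome, gave 0.28 ± 0.16 and -0.27 ± 0.17 (SE), with GRAMD1A at 0.16 without post-MI replicate 2 and NPC1 at -0.12 without post-MI replicate 1.

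Of 8 tested genes of oxysterol metabolism and response, 2 had a negative log2 fold change, against 52.1% of all genes. The median was 0.29, 0.18 when naive replicate 2 was left out and 0.071 without post-MI replicate 2. The list mixes oxysterol enzymes with receptors and other genes. Of the other genes, ABCA1, MYLIP and LPCAT3 gave 0.17 ± 0.35, 0.41 ± 0.30 and -0.23 ± 0.18 (SE). ABCA1 was -0.07 without naive replicate 2, and ABCG1, with 1 to 3 reads a library, was not tested. CH25H, which makes an oxysterol that blocks SREBP processing, was at 4.30, 25.7 and 18.6 CPM in naive and 31.0, 35.2 and 30.7 CPM in post-MI replicates 1, 2 and 3. The groups did not overlap, and naive replicate 1 stood far below the rest. The log2 fold change was 0.998 (adjusted p = 0.595 in edgeR, SE 0.54), and 0.56 without naive replicate 1. The oxysterol hydroxylase CYP7B1 gave 0.52 ± 0.32 (SE), 0.25 when post-MI replicate 3 was left out and 0.81 without post-MI replicate 2, and the receptor NR1H2 gave -0.25 ± 0.14 (SE).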

How the data were processed

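The mRNA libraries were prepared with a strand-specific kit and read in paired ends of 150 bases, per the labels' protocols. The submitters' processing notes name STAR 2.5.2b, SAMtools 1.9, featureCounts 2.0.0, FastQC, MultiQC 1.5, DESeq2 1.26.0 and the build Oar_v3.1. For the gene annotation and for strand use in counting, the sources used here give nothing, so reads of overlapping or antisense genes may not be told apart. The deposited table has raw counts by gene symbol in 6 columns and 18865 rows, of which 17030 had a count. The deposited file of each library holds a normalised signal, which equals the count divided by 1 factor per library, and was not tested.

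Counts were tested with edgeR 4.0.16 in R 4.3.3 (TMM, filterByExpr with a minimum count of 10 and a minimum total of 15, quasi-likelihood F test, Benjamini-Hochberg over 14326 genes, threshold 0.05). CPM were scaled by TMM, and mean log2 CPM used a prior count of 2. DESeq2 1.42.0, limma-voom (limma 3.58.1), other scalings and filters, a replicate block and leaving out each library were alternatives. Gene lengths were not used, so levels were not compared between genes. Members and lists were chosen with earlier results of these data known. Values in every library were given for HMGCS1, SQLE, INSIG1, INSIG2, SREBF1, SREBF2, FASN, SCD, members with separate groups and the 12 with the smallest p, and of each related list the 3 genes with the smallest p were named, except 1 that is not reported here. The planned search for promoter motifs was not run, since no promoter sequences were used here. RefSeq names matched 30 of the 31 symbols and served only for neighbouring genes. LYZ, DES, HBB, PF4 and GP9 among the markers were not analysed here.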

Additional observations from a re-analysis of the deposited data

How the results depend on the processing

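With 3 libraries a group, 0 members were called under each of the 13 alternatives run. DESeq2 gave its smallest member adjusted p, 0.125, to HMGCS1, and called 221 of 14661 genes, 68 of them lower. Leaving out 1 library gave medians of -0.46 to -0.10 and 1 to 10 members at an unadjusted p under 0.05, all lower. Over all genes 1.43% to 5.47% were lower at that level. In 9 to 18 members all post-MI libraries left lay below all naive ones, against 9.68% to 16% of all genes. Without naive replicate 3 these were 9 members and 14.8% of all genes. Without naive replicate 3 the median of the 17 sterol synthesis genes was 0.01. With DESeq2 size factors SREBF1 overlapped, leaving 8 separate members, and the share of all genes was not computed with those factors.

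No other setting moved a count of members by over 1.5 times, and no scaling moved the median of all genes by over 0.1. The replicate block took the 4 related genes at an unadjusted p under 0.05 to 2, against 8.15% of all genes. SC5D and DHCR7 turned to 0.039 and 0.032 with limma-voom and to 0.034 and 0.024 with the replicate block. With 1 library left out, the log2 fold change ranged over 0 for MVD (-0.14 to 0.29), IDI1 (-0.46 to 0.16), FDFT1 (-0.52 to 0.34), MSMO1 (-0.73 to 0.063), NSDHL (-0.12 to 0.17), EBP (-0.28 to 0.012), SC5D (-0.27 to 0.20), DHCR7 (-0.54 to 0.38), SREBF2 (-0.35 to 0.023), SCAP (-0.073 to 0.046), INSIG1 (-0.90 to 0.12), INSIG2 (-0.15 to 0.11) and FASN (-0.13 to 0.16). The cause was not tested. Libraries of the same number deviated together with correlations of 0.151, -0.109 and 0.0924, so the numbers were not read as pairs. Among the 30 members replicate 3 was the highest of its group for 20 in naive and 22 in post-MI libraries. Of the 14326 genes tested these counts were 4679 and 5543. Whether this reflects pairs was not tested. The replicate block gave 0 calls, 8 members at an unadjusted p under 0.05 (8.15% of all genes) and a median of -0.36. Its smallest member adjusted p in edgeR was 0.315, for HMGCS1, against 0.491 without the block. With the block the SE went from 0.25 to 0.14 for HMGCS1 and from 0.78 to 0.43 for LSS. For SREBF1 it rose from 0.30 to 0.35. Depth limits TM7SF2, with 5 to 24 reads a library, which missed the filter with all 6 libraries.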
